A study of Mus musculus with 20 samples.

Results

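The Zfp genes of the mouse encode proteins with zinc fingers, and their liver transcripts were compared between mice without the medium-chain acyl-CoA dehydrogenase (MCAD, gene Acadm), a mitochondrial enzyme of fatty acid oxidation, and wild type mice, each with and without bacterial lipopolysaccharide (LPS). Members were all genes on the array whose symbol is Zfp followed by a number and at most 1 letter. Zfp36 was left out because its protein, an RNA-binding factor with fingers of another kind, belongs to a different family. The rule gave 328 genes with 611 probe sets, out of 18193 genes with 1 symbol. Each gene was read from its brightest probe set, and 150 of the 328 passed the level filter, which asked for more than 16 intensity units on at least 5 of the 20 arrays. In all, 8774 genes passed. The filter used level alone, but a member can pass through the group in which it is high, so counts over the 150 describe the genes that passed and are set beside the same counts over all tested genes.

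The 4 groups held 5 male mice each, with 1 liver RNA sample and 1 array per mouse. They were mcad -/- mice (MCAD-/- in what follows) with LPS, MCAD-/- mice with vehicle, wild type (WT) mice with LPS and wild type mice with vehicle. LPS comes from the outer membrane of bacteria and sets off an inflammatory response, and it was injected at 100 µg per 20 g body weight. What all groups shared was a mixed BL6/SV129 background, an age of 50 to 60 days and a 12 h fast after the injection. The labels do not say how the Acadm allele was made, nor whether the 2 genotypes were littermates.

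Most Zfp proteins carry fingers of the C2H2 type, in which 2 cysteines and 2 histidines hold a zinc ion, and a row of such fingers reads DNA. In mice many of them also carry a KRAB domain, which recruits Trim28, the methyltransferase Setdb1 and heterochromatin proteins to silence transposable elements and nearby genes. The KRAB genes lie in clusters, arose largely by tandem duplication, and differ between mouse strains. In liver, the KRAB protein Rsl1 is known to hold down male-specific genes in females. Other members bind RNA or work as classical transcription factors.

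Between genotypes the member with the largest difference was Zfp874a, and 3 consecutive genes of 1 cluster, Zfp868, Zfp869 and Zfp963, differed in both injections in 2 directions. The 250 bases upstream of their RefSeq transcription starts (assembly GRCm38.p6, minus strand of each chromosome) are shown so that these neighbouring genes can be read against each other, together with those of Zfp874b, the gene next to Zfp874a. Lower case is plain sequence, and capitals mark 3 short motifs that were searched on both strands. The letters CCAAT form the CCAAT box. The letters GGGCGG form the GC box, a site of Sp1-type factors. The letters TGACGTCA form the cyclic AMP response element. The windows are Zfp874a at chr13:67451625-67451874, Zfp874b at chr13:67484254-67484503, Zfp868 at chr8:69625549-69625798 (the first of 2 starts in the table), Zfp869 at chr8:69716903-69717152 and Zfp963 at chr8:69749963-69750212.
Zfp874a: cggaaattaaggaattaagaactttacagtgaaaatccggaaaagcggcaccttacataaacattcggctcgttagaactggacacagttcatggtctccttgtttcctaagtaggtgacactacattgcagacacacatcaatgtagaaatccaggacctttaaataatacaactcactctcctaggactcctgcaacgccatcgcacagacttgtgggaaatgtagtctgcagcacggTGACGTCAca
Zfp874b: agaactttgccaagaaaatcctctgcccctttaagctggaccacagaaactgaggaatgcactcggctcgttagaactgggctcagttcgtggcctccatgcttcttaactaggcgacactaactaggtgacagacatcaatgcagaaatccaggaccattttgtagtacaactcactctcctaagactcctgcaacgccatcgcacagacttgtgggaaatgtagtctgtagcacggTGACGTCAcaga
Zfp868: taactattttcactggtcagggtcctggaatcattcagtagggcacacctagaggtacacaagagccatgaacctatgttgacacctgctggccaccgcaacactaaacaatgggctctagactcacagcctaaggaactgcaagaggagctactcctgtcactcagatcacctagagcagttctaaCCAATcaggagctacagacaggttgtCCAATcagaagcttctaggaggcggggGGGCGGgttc
Zfp869: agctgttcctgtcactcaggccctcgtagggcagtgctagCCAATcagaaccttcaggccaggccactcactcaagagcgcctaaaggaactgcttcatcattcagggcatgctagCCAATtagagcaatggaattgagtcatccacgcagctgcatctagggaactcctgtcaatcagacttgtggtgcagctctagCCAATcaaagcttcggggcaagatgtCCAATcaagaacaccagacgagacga
Zfp963: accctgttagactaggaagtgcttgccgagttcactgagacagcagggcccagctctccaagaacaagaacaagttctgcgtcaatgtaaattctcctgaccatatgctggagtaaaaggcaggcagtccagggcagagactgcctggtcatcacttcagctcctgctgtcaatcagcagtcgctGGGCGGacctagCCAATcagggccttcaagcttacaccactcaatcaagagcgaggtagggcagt
The Zfp874a and Zfp874b windows were 72.9% identical in a global alignment, and both held TGACGTCA close to the start. That motif, chosen after these sequences were read, was in 1.6% of 27025 promoters and in 3.1% of the 127 tested members with a promoter entry. CCAAT occurred 2 times in Zfp868, 4 times in Zfp869 and 1 time in Zfp963, and in neither Zfp874 gene. Across all promoters CCAAT was in 34.5%, against 52.8% of the members, and GGGCGG was in 32.9%, against 53.5%. The 3 chromosome 8 windows were 51.8% to 55.2% identical to each other, while Zfp874a and Zfp868, from different chromosomes, were 48.8% identical. The TATA box letters TATAAA had no match in these 5 windows. The same holds for the YY1 core AAGATGG. Neither did the ETS core, CCGGAAG, occur in them, nor the E-box, CACGTG. Each match is a description of letters in the window.

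Of each array's probe sets, 30.3% to 32.4% exceeded 16 units. Acadm itself lay between 14.3 and 218 units in the MCAD-/- LPS group, against 1450 and 2375 units in the wild type LPS group. With vehicle it lay between 9.03 and 80.2 units in MCAD-/- mice, against 3106 and 4022 units in wild type mice. Each mouse's label and its Acadm level therefore went together on all 20 arrays. Wild type LPS replicate 4 and wild type vehicle replicate 3 had the highest log2 ratios of 3' to 5' actin probe signal, a measure of RNA integrity, at 3.69 and 3.18. Where a call of a named member was lost without both, its value is given beside it. Among the 150 members, 81 exceeded 16 units on all 20 arrays. At the edge of the filter, Zfp142, Zfp2 and Zfp324 passed on exactly 5 arrays, and the lowest of their group means was 5.86 units. Zfp1, Zfp354b, Zfp628, Zfp661, Zfp775 and Zfp930 exceeded 16 units on 4 arrays and stayed out, with group means between 8.80 and 19.0 units. Of the 178 members that stayed out, 144 exceeded 16 units on no array.

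The first question was which members differ by genotype whichever injection the mice had. With vehicle, 21 of the 150 members (14%) passed the threshold (limma, adjusted p under 0.05 over 8774 genes), against 16.2 percent of all tested genes. Of these, 10 were higher and 11 lower in MCAD-/- mice, where 9.81 percent of all genes were higher and 6.39 percent lower. With LPS, 29 members (19.3%) passed, against 20.6 percent of all genes. Here 24 were higher and 5 lower in MCAD-/- mice. Thus 16% of the members were higher where 8.75 percent of all genes were, and 3.33% were lower where 11.8 percent of all genes were. The median difference over the 150 members was 0.06 on the log2 scale with vehicle and 0.14 with LPS, against 0.04 and -0.03 over all tested genes. The 5 MCAD-/- and 5 wild type mice did not overlap at all for 16 members with vehicle, where 13.8 percent of all genes were so separated, and for 23 members with LPS, where 12.8 percent were. The count of 21 was 13 without MCAD-/- vehicle replicate 1 and also 13 without MCAD-/- vehicle replicate 4.

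In all 9 members passed in the same direction in both injections, 7 higher and 2 lower in MCAD-/- mice. That is 42.9% of the vehicle calls and 31% of the LPS calls, and 6% of the members, against 6.44 percent of all tested genes, of which 3.19 percent were higher and 3.25 percent lower. No member passed in opposite directions in the 2 injections, as 0.319 percent of all genes did. The 2 genotype comparisons use different mice. The 2 lower members were Zfp874a and Zfp868, and the 7 higher ones were Zfp593, Zfp869, Zfp963, Zfp131, Zfp106, Zfp932 and Zfp617. Of the 9, 4 (Zfp868, Zfp869, Zfp963 and Zfp617) lie on chromosome 8, which holds 12 of the 150 tested members, and 2 (Zfp874a and Zfp131) on chromosome 13, which holds 9. The share of all tested genes that passed in both injections was not counted by chromosome, so these counts give location alone. Among those on chromosome 8, Zfp963 passed the level filter through MCAD-/- arrays, and the vehicle call of Zfp617 was near the threshold. Acadm is on chromosome 3, where 3 members were tested and 0 of them were among the 9. Of the 9, 4 passed for LPS in neither genotype, and Zfp593 passed in both. Among all tested genes 77.3 percent passed for LPS in at least 1 genotype, and 52.2 percent in the same direction in both. Zfp963, 1 of the 4, was above 16 units on no wild type array, so its missing LPS call says little.

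**Figure D1:**
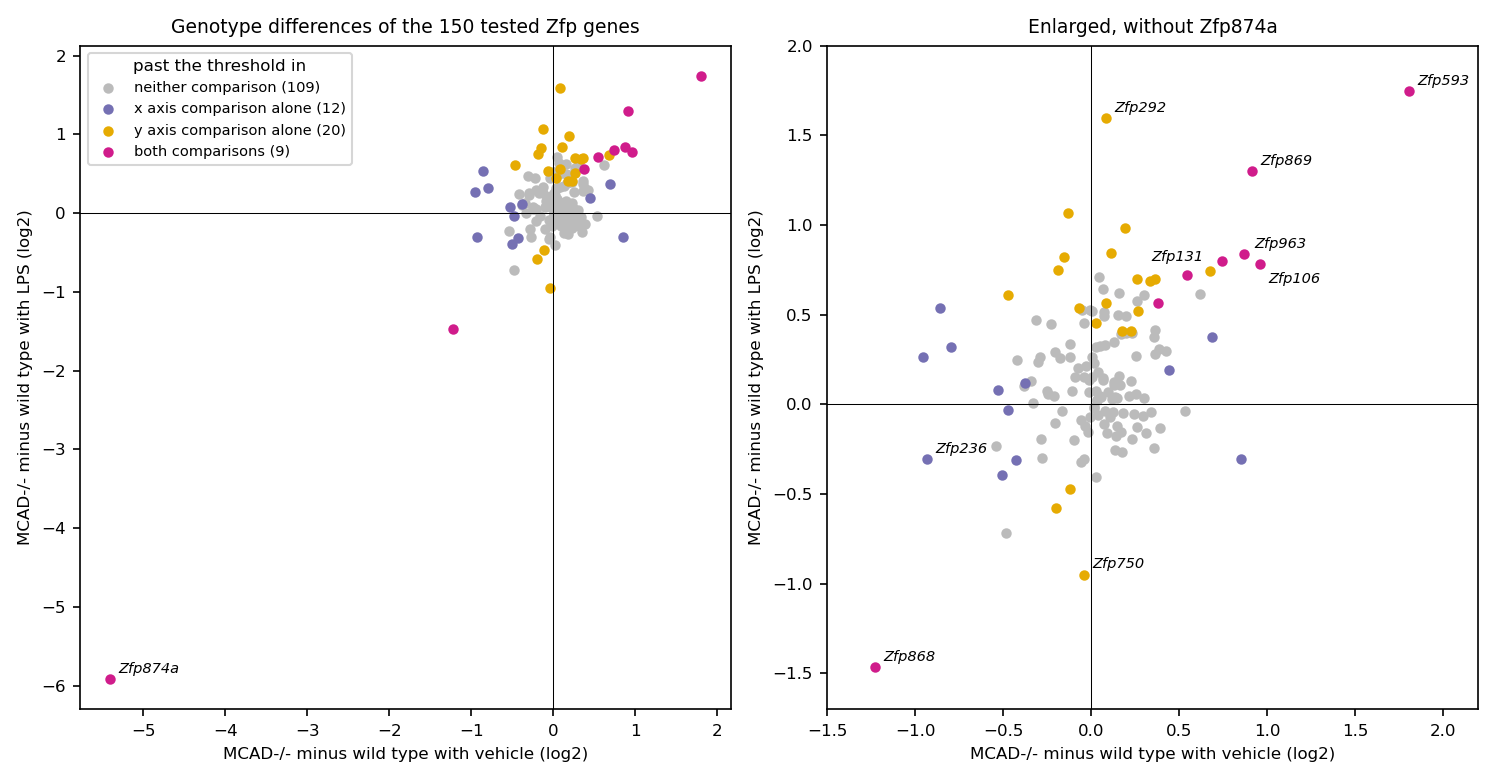
Difference between MCAD-/- and wild type livers (log2) with vehicle (x axis) and with LPS (y axis) for the 150 tested Zfp genes, 1 point per gene, coloured by the comparison in which it passed the threshold; the right panel enlarges the centre. Zfp874a lies apart at fitted values of -5.41 and -5.92, and most other members lie within 1 log2 unit of 0 on both axes.

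Zfp874a, a zinc finger gene on chromosome 13, was picked as an example because of its genotype pattern, so its genotype levels are a description. It read 3.72, 4.48, 3.30, 4.80 and 3.14 units in MCAD-/- mice with vehicle, against 148, 168, 172, 161 and 165 units in wild type mice with vehicle. With LPS it read 4.45, 5.00, 4.77, 4.43 and 4.81 units in MCAD-/- mice, against 365, 316, 307, 279 and 183 units in wild type mice. All 10 MCAD-/- mice were at the level of an undetected probe set and all 10 wild type mice were well above it, and it was the only member above 16 units on no MCAD-/- array. Because MCAD-/- mice were under 16 units, the difference is a bound: at least 10.2-fold lower with vehicle and at least 17.7-fold lower with LPS. In wild type mice, where the transcript was measured, LPS went with a rise of 0.80 ± 0.15 on the log2 scale (SE, limma adjusted p = 0.00011), and the 5 LPS mice lay above the 5 vehicle mice. Wild type LPS replicate 5 was the lowest of its group at 183 units.

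The genes around Zfp874a are mostly other Zfp genes, and most of them were near the floor of the array. In RefSeq order its neighbours on the array were Zfp429 and Zfp874b, and both failed the level filter. Zfp874b ran opposite to Zfp874a in the levels read, with group means of 9.95 units in MCAD-/- mice with LPS and 8.59 units in MCAD-/- mice with vehicle, against 6.44 and 5.22 units in wild type mice with LPS and with vehicle. All 4 means are below 16 units. Of the 6 array genes on either side, 3 were tested. Among them 1 passed in the same direction in both injections, as 6.44 percent of all tested genes did. That gene was Rsl1, named here after its values were seen. Rsl1 averaged 6.97 units in MCAD-/- mice and 14.2 units in wild type mice with vehicle. With LPS it averaged 13.1 units in MCAD-/- mice and 27.6 units in wild type mice. All MCAD-/- mice were under 16 units for Rsl1, and only the wild type LPS group averaged above it. With LPS Rsl1 was at least 1.72-fold lower in MCAD-/- mice, and with vehicle no fold is given. Rsl1 passed the level filter through wild type arrays, so its genotype calls are a description.

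Zfp868, Zfp869 and Zfp963 stand next to each other on chromosome 8 among array genes, and they did not move together. Zfp868 read 26.3, 16.4, 16.2, 28.2 and 19.4 units in MCAD-/- mice with vehicle, against 44.1, 52.9, 47.4, 49.6 and 48.9 units in wild type mice with vehicle. With LPS it read 16.5, 17.3, 19.9, 15.6 and 15.4 units in MCAD-/- mice, against 58.4, 46.3, 44.1, 41.0 and 45.3 units in wild type mice. Zfp868 was lower in every MCAD-/- mouse than in every wild type mouse, with differences of -1.23 ± 0.14 with vehicle (limma adjusted p = 3.97e-06) and -1.47 ± 0.14 with LPS (adjusted p = 3.56e-07) on the log2 scale.

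Zfp869, the next gene, was higher in MCAD-/- mice. It read 102, 80.7, 68.4, 108 and 86.5 units in MCAD-/- mice with vehicle, against 47.6, 50.9, 53.4, 47.9 and 36.2 units in wild type mice. With LPS it read 120, 100, 166, 112 and 141 units in MCAD-/- mice, against 52.9, 54.4, 41.4, 49.3 and 59.5 units in wild type mice. The groups did not overlap in either injection, and the differences were 0.91 ± 0.15 (limma adjusted p = 0.000278) and 1.30 ± 0.15 (adjusted p = 3.86e-06) on the log2 scale.

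Zfp963, the third in the row, was dim. It ranged from 16.2 to 20.8 units in MCAD-/- mice with vehicle, against 8.72 to 11.0 units in wild type mice. With LPS it ranged from 12.6 to 19.5 units in MCAD-/- mice, against 4.87 to 10.5 units in wild type mice. It was the only member above 16 units on no wild type array, so the fold with vehicle is a bound of at least 1.17-fold. With LPS 4 of the 5 MCAD-/- mice were also under 16 units, and no fold is given. Zfp963 passed the level filter through MCAD-/- arrays, so its genotype calls are a description. On the outer side beyond Zfp963, Zfp866 differed less. It was at 0.04 ± 0.18 with vehicle and -0.06 ± 0.18 with LPS and passed in neither (limma adjusted p = 0.917 and 0.859). Gm10033, before Zfp868, failed the level filter. Genes of 1 cluster have similar sequences, and whether a probe set also reads a neighbouring gene's RNA was not tested.

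**Figure D2:**
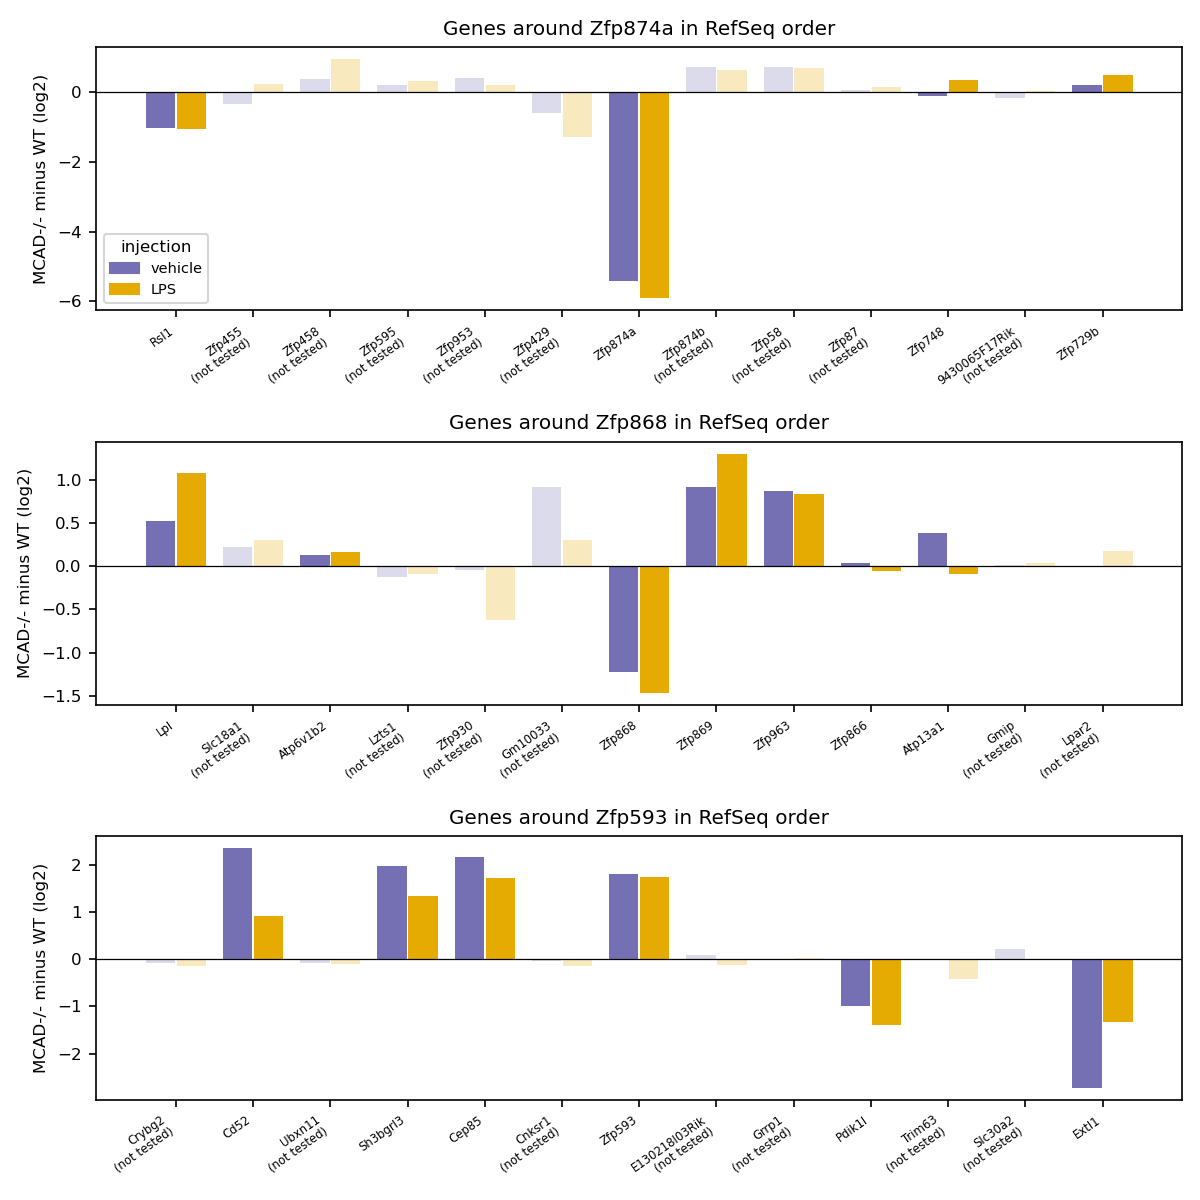
Difference between MCAD-/- and wild type livers (log2 of the ratio of group mean levels, purple with vehicle and yellow with LPS) for each gene on the array around Zfp874a, Zfp868 and Zfp593, in RefSeq order, 6 genes to each side; pale bars are genes under the level filter, and a bar with a group under 16 units shows a fitted value, not a bound. Zfp868 points down beside Zfp869 and Zfp963, which point up, and all 5 tested neighbours of Zfp593 differ in the same direction in both injections.

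Zfp593 is the mouse relative of yeast Bud20, which helps carry large ribosomal subunits out of the nucleus, and it had the largest rise between genotypes. It read 80.7, 60.4, 76.4, 80.8 and 83.4 units in MCAD-/- mice with vehicle, against 21.4, 24.1, 22.8, 15.9 and 25.5 units in wild type mice. With LPS it read 125, 112, 129, 114 and 135 units in MCAD-/- mice, against 28.9, 32.4, 38.4, 54.0 and 33.5 units in wild type mice. No mouse of one genotype reached the other within an injection. The differences were 1.81 ± 0.15 (limma adjusted p = 3.46e-08) with vehicle and 1.75 ± 0.15 (adjusted p = 5.8e-08) with LPS on the log2 scale. Zfp593 also rose with LPS in both genotypes, by 0.69 ± 0.15 in MCAD-/- mice and 0.75 ± 0.15 in wild type mice on the log2 scale (limma adjusted p = 0.000544 and 0.000255). The probe set used is of a type that the maker marks as possibly cross-hybridising, and the gene's other probe set stayed between 4.60 and 5.65 units in the group means.

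Zfp593 lies on chromosome 4 among genes that differed as well. Within 6 array genes to each side, a window looked at after the values of Zfp593 were seen, 5 genes were tested. All 5 passed in the same direction in both injections, as 6.44 percent of all tested genes did. With vehicle all wild type mice were under 16 units for 3 of them: Cd52, a lymphocyte and myeloid surface antigen, was at least 3.00-fold higher in MCAD-/- mice, Sh3bgrl3 at least 1.93-fold and Cep85, a centrosomal protein gene, at least 3.46-fold. With LPS these 3 were higher in MCAD-/- mice by 0.92, 1.33 and 1.71 on the log2 scale. Pdik1l, a kinase gene, differed by -0.995 with vehicle and -1.39 with LPS. Extl1, an enzyme of heparan sulfate synthesis, was under 16 units in all MCAD-/- mice, at least 2.95-fold lower with vehicle and at least 1.19-fold lower with LPS. It passed the level filter through wild type arrays, so its genotype calls are a description. Without Extl1, the limma adjusted p-values ran up to 0.00308 with vehicle and up to 0.00724 with LPS.

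A further 4 members passed in both injections with smaller differences. Zfp131, a regulator with a BTB domain beside its fingers, read 104, 83.7, 112, 116 and 111 units in MCAD-/- mice with vehicle, against 44.2, 58.2, 89.4, 60.3 and 69.3 units in wild type mice. With LPS it read 124, 127, 198, 102 and 104 units in MCAD-/- mice, against 71.1, 78.0, 68.2, 66.8 and 82.3 units in wild type mice. The groups overlapped with vehicle, through wild type replicate 3, and not with LPS. The differences were 0.74 ± 0.18 (limma adjusted p = 0.00623) and 0.80 ± 0.18 (adjusted p = 0.003) on the log2 scale. Its window of 6 to each side held 3 tested genes. Of these, 2 passed in the same direction in both injections, as 6.44 percent of all tested genes did. 4833420G17Rik was higher in MCAD-/- mice by 2.66 and 2.69 on the log2 scale with vehicle and with LPS. All wild type mice were under 16 units for Tmem267, which was at least 6.33-fold higher in MCAD-/- mice with vehicle and at least 4.28-fold higher with LPS. Tmem267 passed the level filter through MCAD-/- arrays, so its genotype calls are a description.

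Zfp106 encodes an RNA-binding protein that motor neurons and muscle need. Its brightest probe set read 444, 315, 257, 398 and 365 units in MCAD-/- mice with vehicle, against 186, 168, 224, 135 and 199 units in wild type mice. With LPS it read 273, 198, 162, 290 and 334 units in MCAD-/- mice, against 115, 115, 149, 166 and 174 units in wild type mice. The differences were 0.96 ± 0.20 (limma adjusted p = 0.00204) and 0.78 ± 0.20 (adjusted p = 0.00818) on the log2 scale. Another probe set of the same gene ran the other way, at -0.61 with vehicle (limma adjusted p = 0.0317 over 15748 probe sets) and -0.51 with LPS (adjusted p = 0.0584). The direction for Zfp106 thus depends on the probe set. Its window of 6 to each side held 6 tested genes, of which 0 passed in the same direction in both injections.

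Zfp932, a KRAB repressor of endogenous retroviruses, ranged from 23.3 to 40.5 units in MCAD-/- mice with vehicle, against 15.6 to 26.3 units in wild type mice. With LPS it ranged from 36.7 to 44.2 units in MCAD-/- mice, against 18.9 to 36.5 units in wild type mice. It was higher in MCAD-/- mice by 0.54 ± 0.18 (limma adjusted p = 0.0456) and 0.72 ± 0.18 (adjusted p = 0.00787) on the log2 scale. Zfp617, a zinc finger gene next to Zfp961, ranged from 203 to 260 units in MCAD-/- mice with vehicle, against 142 to 261 units in wild type mice, and from 213 to 240 units in MCAD-/- mice with LPS, against 140 to 166 units in wild type mice. It was higher by 0.38 ± 0.13 (limma adjusted p = 0.0483) and 0.57 ± 0.13 (adjusted p = 0.00354) on the log2 scale. Both vehicle calls were near the threshold. Leaving out 1 mouse ended the vehicle call of Zfp932 for 14 of the 20 mice, with differences between 0.41 and 0.58 where it was lost, and that of Zfp617 for 17 of the 20, with differences between 0.30 and 0.39. A second probe set of Zfp617 was at -0.03 and -0.07. Of 7 tested genes in the window of 6 to each side of Zfp932, 1 passed in the same direction in both injections. That gene was Crlf2, higher in MCAD-/- mice. Around Zfp617 it was 1 of 5, Fam32a, which was lower in MCAD-/- mice. Among all tested genes 6.44 percent passed so.

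**Figure D3:**
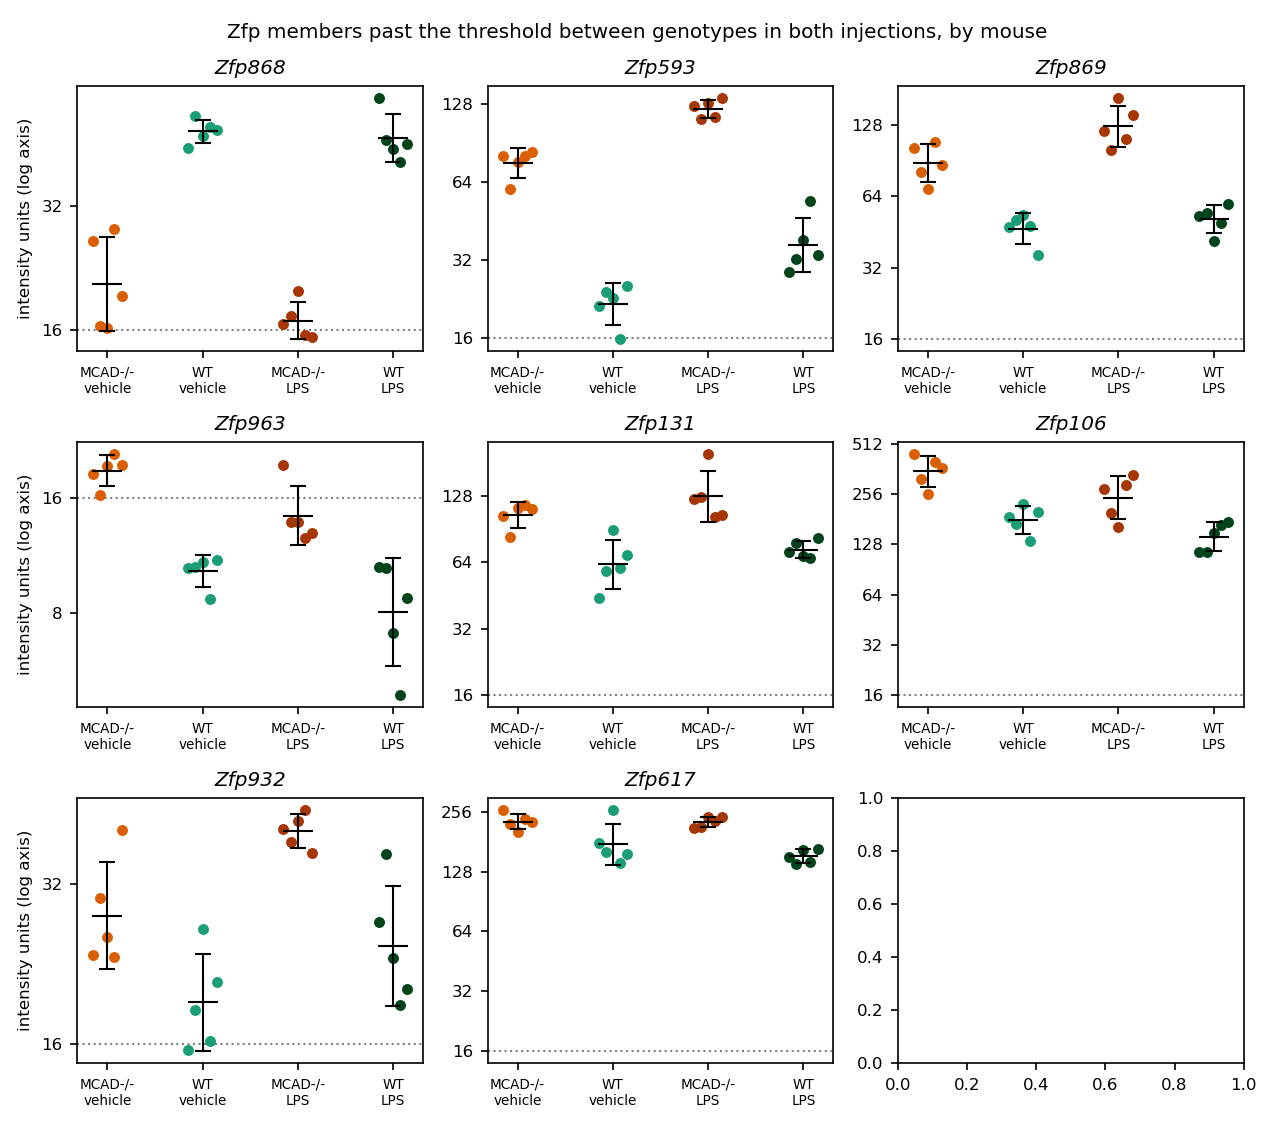
Intensity units on a log axis for the members that passed between genotypes in both injections, without Zfp874a. Each point is 1 mouse, with 5 per group in columns MCAD-/- with vehicle, WT with vehicle, MCAD-/- with LPS and WT with LPS. Bars mark the mean log2 level and whiskers 1 SD. The dotted line is the 16 unit floor, and for Zfp963 all wild type mice lie under it.

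A set of 12 members passed between genotypes with vehicle alone, 3 higher and 9 lower in MCAD-/- mice. That is 8% of the members, against 9.45 percent of all tested genes; 2% were higher and 6% lower, against 6.45 percent and 3 percent. Zfp236, whose human relative was found as a glucose-regulated transcript, read 18.6, 17.6, 19.3, 17.6 and 16.9 units in MCAD-/- mice, against 31.5, 40.5, 35.5, 35.6 and 29.4 units in wild type mice. It was lower in MCAD-/- mice by 0.93 ± 0.12 on the log2 scale (limma adjusted p = 1.52e-05), and the groups did not overlap. Zfp955b was lower in MCAD-/- mice by 0.96 ± 0.32, and Zfp322a, which is tied to pluripotency in embryonic stem cells, by 0.80 ± 0.21 on the log2 scale (limma adjusted p = 0.0483 and 0.0114). The second probe set of Zfp322a was at -0.52 and did not pass with vehicle (adjusted p = 0.205), and was higher in MCAD-/- mice with LPS, at 0.92 (adjusted p = 0.0155). Zfp267 was under 16 units in all 5 MCAD-/- mice, at least 1.12-fold lower (adjusted p = 0.0313). Zfp955b lost its call when any of 16 of the 20 mice was left out, at differences of -1.01 to -0.87. A second probe set of Zfp955b was lower in MCAD-/- mice in both injections, at -0.74 with vehicle and -0.77 with LPS (limma adjusted p = 0.000301 and 0.000179 over 15748 probe sets). Zfp267, at fitted differences of -0.86 to -0.70, lost its call without wild type vehicle replicate 2, 3 or 5 or MCAD-/- vehicle replicate 3 or 4. Zfp467, a factor of fat cell formation, read 32.7 to 53.1 units in MCAD-/- mice, against 16.6 to 34.3 units in wild type mice. It was higher in MCAD-/- mice by 0.85 ± 0.20 (limma adjusted p = 0.00671). A call with vehicle alone does not show that the difference depends on the injection, which the interaction tests.

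With LPS alone, 20 members passed between genotypes, 17 higher and 3 lower in MCAD-/- mice. That is 13.3% of the members, against 13.8 percent of all tested genes; 11.3% were higher and 2% lower, against 5.41 percent and 8.41 percent. Zfp292, a transcription factor described at the growth hormone gene of the rat pituitary, read 101, 73.7, 167, 110 and 110 units in MCAD-/- mice, against 26.0, 31.3, 58.6, 25.3 and 49.9 units in wild type mice. It was higher in MCAD-/- mice by 1.59 ± 0.24 on the log2 scale (limma adjusted p = 9.66e-05) without overlap. Its 3 other probe sets that passed the filter were also higher, at 0.79 to 0.98 on the log2 scale, all past the threshold. For the LPS response they differed more from the brightest one, as given with the interaction. Zfp9 was higher in MCAD-/- mice by 1.07 ± 0.24, Zfp275 by 0.98 ± 0.15, and Zfp961, a KRAB gene, by 0.84 ± 0.16 (limma adjusted p = 0.00319, 0.000108 and 0.000682). Zfp750, a factor of epidermal differentiation, read 21.9, 25.3, 10.8, 21.2 and 23.1 units in MCAD-/- mice, against 39.4, 55.0, 30.2, 32.4 and 37.2 units in wild type mice. It was lower in MCAD-/- mice by 0.95 ± 0.22 (limma adjusted p = 0.00387), Zfp672 by 0.58 ± 0.13 and Zfp954 by 0.47 ± 0.15 (adjusted p = 0.00333 and 0.0361). The call for Zfp954 was lost without wild type LPS replicate 1, 2 or 4 or MCAD-/- LPS replicate 1, 2, 4 or 5, at -0.49 to -0.36, and without the 2 wild type mice with high actin ratios, at -0.43 (adjusted p = 0.0707).

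The second question was how many members changed with LPS. Their share was below that of all tested genes, a difference that was not tested. In MCAD-/- mice 74 of the 150 members (49.3%) passed between LPS and vehicle, against 65.7 percent of all tested genes. In wild type mice 54 (36%) passed, against 64 percent. The same direction in both genotypes was seen for 35 members (23.3%), 27 higher and 8 lower, against 52.2 percent of all genes. This is 47.3% of the MCAD-/- calls and 64.8% of the wild type calls. At least 1 genotype passed for 93 members (62%), against 77.3 percent of all genes, and 57 members passed in neither. The 2 LPS comparisons use different mice, but each shares mice with the genotype comparisons. Groups did not overlap for 42 members in MCAD-/- mice, where 51.4 percent of all genes were separated, and for 43 in wild type mice, where 46.1 percent were.

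Many members are dim, so the shares were also taken among brighter genes. With a filter of 64 units on at least 5 arrays, 53 members and 6119 genes remained. Of those members 58.5% passed for LPS in MCAD-/- mice and 41.5% in wild type mice, against 69.8 percent and 66.9 percent of all genes at that level. Between genotypes 22.6% of them passed with vehicle and 26.4% with LPS, against 15.6 percent and 22.4 percent. The interaction passed for 3.77% of them, against 3.86 percent.

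**Figure D4:**
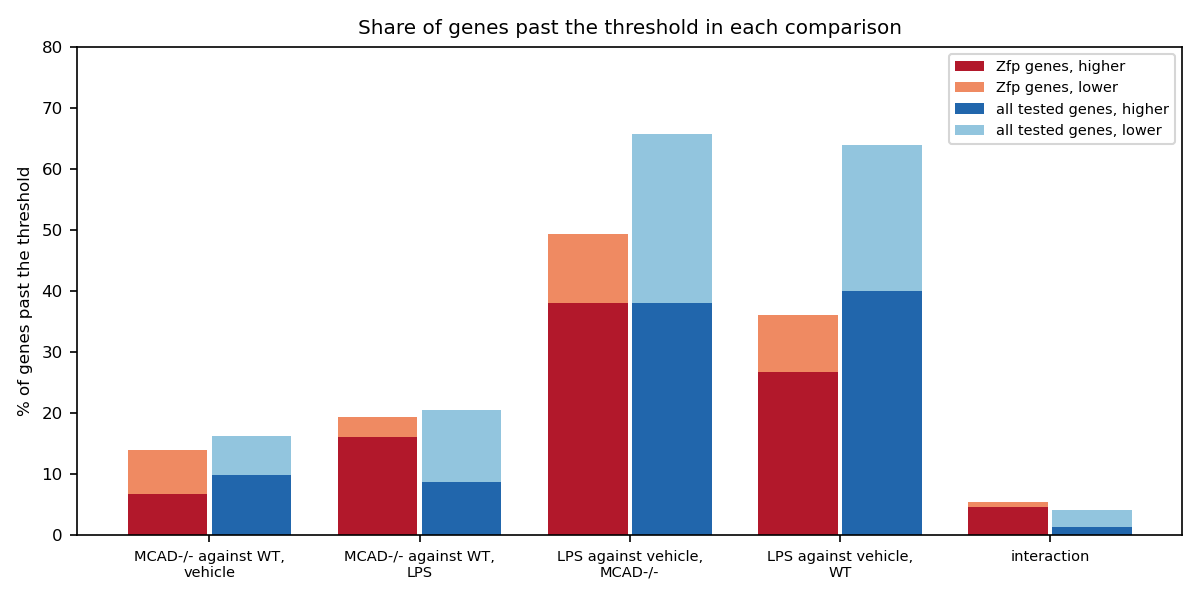
Share of genes past the threshold (% of genes tested, bars from 0, higher and lower stacked) in each comparison, for the 150 Zfp genes on the left of each pair and the 8774 tested genes on the right. For LPS the Zfp bars reach 49.3% in MCAD-/- mice and 36% in wild type mice, against 65.7% and 64% of all genes.

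More members rose than fell with LPS in the values as deposited: 57 against 17 in MCAD-/- mice and 40 against 14 in wild type mice. Among all genes 38.1 percent rose and 27.6 percent fell in MCAD-/- mice, and 40 percent rose and 24 percent fell in wild type mice. That split depends on scaling. With each array centred on its median it was 43 against 20 in MCAD-/- mice and 26 against 33 in wild type mice, and after a further quantile normalization 44 against 21 and 30 against 30. The median LPS difference of all tested genes was 0.14 in MCAD-/- mice and 0.18 in wild type mice on the log2 scale as deposited, and 0.04 and 0.02 after centring. The members' median was 0.26 in MCAD-/- mice and 0.12 in wild type mice as deposited, and 0.17 and -0.04 after centring. In MCAD-/- mice it was thus above the median of all genes under both scalings, and in wild type mice below it.

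Zfp518b, whose human relative binds the histone methyltransferases G9a and EZH2, had the largest fitted rise with LPS in MCAD-/- mice. It read 20.1, 21.9, 37.2, 21.6 and 24.6 units in MCAD-/- mice with LPS, against 6.21, 6.77, 4.34, 6.05 and 6.32 units with vehicle. With LPS the wild type mice read 26.0, 20.1, 24.4, 21.6 and 24.1 units, against 6.90, 9.43, 8.40, 7.10 and 11.3 units with vehicle. All 10 LPS mice were above 16 units and all 10 vehicle mice below, so the rise was at least 1.53-fold in MCAD-/- mice and at least 1.45-fold in wild type mice. Zfp54 was likewise at least 1.82-fold higher in MCAD-/- mice and at least 1.84-fold higher in wild type mice. A set of 8 members exceeded 16 units on no vehicle array, namely Zfp142, Zfp217, Zfp280b, Zfp324, Zfp518b, Zfp54, Zfp709 and Zfp954, and passed the filter through the LPS mice, so their LPS calls are no support for a response.

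Other rises reached into the dim range as well. Zfp513 rose by 1.30 ± 0.14 in MCAD-/- mice and 1.47 ± 0.14 in wild type mice on the log2 scale (limma adjusted p = 9.77e-08 and 2e-08), and Zfp810 by 1.46 ± 0.29 and 1.26 ± 0.29 (adjusted p = 0.000167 and 0.000722). With vehicle, Zfp513 was under 16 units in 1 of 5 MCAD-/- mice and 4 of 5 wild type mice, and Zfp810 in 2 MCAD-/- and 3 wild type mice, so these sizes are fitted values. Zfp217, a corepressor component known as an oncogene in human breast cancer, was at least 1.55-fold higher in MCAD-/- mice and at least 1.29-fold higher in wild type mice. Zfp207, a spindle protein that stabilises Bub3, read 628, 581, 729, 497 and 609 units in MCAD-/- mice with LPS, against 274, 308, 271, 292 and 273 units with vehicle. The wild type mice read 646, 596, 597, 283 and 526 units with LPS, against 325, 409, 405, 392 and 369 units with vehicle. Wild type LPS replicate 4, which has the highest actin ratio, lies below all vehicle mice. The rise was 1.09 ± 0.17 in MCAD-/- mice (limma adjusted p = 1.14e-05) and 0.43 ± 0.17 in wild type mice (adjusted p = 0.0316). Without that mouse the wild type rise was 0.64 (limma adjusted p = 4.41e-05), and without wild type vehicle replicate 1 or 5 or wild type LPS replicate 1, 2, 3 or 5 it did not pass, at 0.34 to 0.42. The wild type call of Zfp207 was also lost with each array centred on its median. Zfp207's next brightest probe set was at -0.32 and -0.98 on the log2 scale.

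Of the members that fell with LPS, 17 in MCAD-/- mice and 14 in wild type mice, 8 were shared by both genotypes. Zfp871 read 282, 334, 389, 396 and 309 units in MCAD-/- mice with LPS, against 848, 746, 786, 829 and 730 units with vehicle. In wild type mice it read 291, 241, 288, 187 and 286 units with LPS, against 715, 674, 725, 694 and 676 units with vehicle. It fell by 1.21 ± 0.12 and 1.45 ± 0.12 on the log2 scale (limma adjusted p = 4.43e-08 and 4.34e-09), with no overlap. Zfp276 fell by at least 2.02-fold in MCAD-/- mice, which were all under 16 units with LPS, and by 1.37 ± 0.26 on the log2 scale in wild type mice. Zfp715 fell by 1.45 ± 0.13 in MCAD-/- mice and 1.19 ± 0.13 in wild type mice on the log2 scale, and Zfp385b, linked to p53-dependent cell death, by 1.28 ± 0.19 and 1.46 ± 0.19. Zfp629 fell by 0.81 ± 0.15 on the log2 scale in MCAD-/- mice, and by at least 1.52-fold in wild type mice, which were all under 16 units with LPS. Zfp955b fell by 1.29 ± 0.32 in wild type mice (limma adjusted p = 0.00172), and by 0.83 without wild type LPS replicate 4, which read 8.96 units where the other 4 mice of its group read 33.2 to 51.5 units. The second probe set of Zfp955b was at -0.12 in wild type mice and did not pass (limma adjusted p = 0.42 over 15748 probe sets). Zfp362 fell by 0.75 ± 0.17 in MCAD-/- mice (limma adjusted p = 0.000637), and its -0.23 ± 0.17 in wild type mice did not pass (adjusted p = 0.25).

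**Figure D5:**
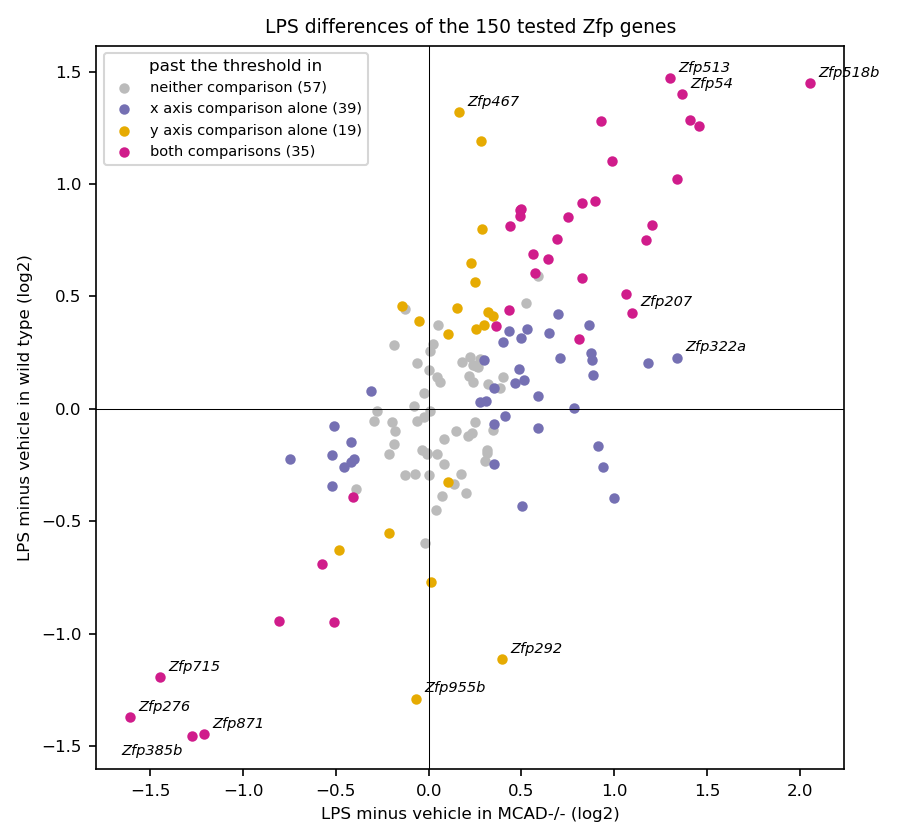
Difference between LPS and vehicle livers (log2) in MCAD-/- mice (x axis) and in wild type mice (y axis) for the 150 tested Zfp genes, 1 point per gene, coloured by the comparison in which it passed. Points past the threshold in both genotypes (35) lie at the upper right and lower left, Zfp292 lies at 0.40 and -1.11, and Zfp467 at 0.16 and 1.32.

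Whether the LPS response differs between genotypes was tested by the interaction, the LPS difference in MCAD-/- mice minus that in wild type mice. It passed for 8 members (5.33%), 7 positive and 1 negative, against 4.11 percent of all tested genes, 1.36 percent positive and 2.76 percent negative. Zfp292 did not pass in MCAD-/- mice (0.40 ± 0.24) and fell by 1.11 ± 0.24 in wild type mice with LPS, an interaction of 1.51 ± 0.35 on the log2 scale (limma adjusted p = 0.0167). Both values rest on the brightest probe set of Zfp292: its 3 others gave -0.27, -0.22 and -0.47 for LPS in wild type mice, of which the last passed (limma adjusted p = 0.359, 0.378 and 0.0283 over 15748 probe sets), and interactions of 0.60, 0.93 and 0.67, of which none passed (adjusted p = 0.383, 0.0925 and 0.152). Its vehicle levels were 64.3 to 102 units in MCAD-/- mice and 59.1 to 108 units in wild type mice, and those groups overlapped. Zfp229 was under 16 units in all MCAD-/- vehicle and all wild type LPS mice. With LPS it was at least 1.36-fold higher than with vehicle in MCAD-/- mice and did not pass in wild type mice (limma adjusted p = 0.413), and its fitted interaction of 1.08 ± 0.25 (adjusted p = 0.017) rests on dim values. Zfp322a, with 1.34 ± 0.21 against 0.23 ± 0.21, had an interaction of 1.11 ± 0.29 (adjusted p = 0.034).

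Zfp267, under 16 units in all MCAD-/- vehicle mice, was at least 1.24-fold higher with LPS in MCAD-/- mice and at -0.40 ± 0.26 in wild type mice, with a fitted interaction of 1.40 ± 0.37. Zfp236, at 0.87 ± 0.12 in MCAD-/- mice against 0.25 ± 0.12 in wild type mice, had an interaction of 0.63 ± 0.17 (limma adjusted p = 0.0376 for Zfp267 and 0.0424 for Zfp236). Zfp275 had 0.78 ± 0.22 and Zfp9 had 1.20 ± 0.34 (adjusted p = 0.043 and 0.0479). Zfp467 was the negative one, at 0.16 ± 0.20 in MCAD-/- mice against 1.32 ± 0.20 in wild type mice, an interaction of -1.16 ± 0.29 (adjusted p = 0.0268). The number of members passing was 3 without wild type vehicle replicate 3, MCAD-/- vehicle replicate 2, 3 or 4 or MCAD-/- LPS replicate 5, and 5 or fewer without any of 14 mice, those included; the highest count was 9. It was 2 without the 2 wild type mice with high actin ratios. Left out 1 at a time, 17 mice ended the interaction of Zfp275, 16 that of Zfp9, 13 that of Zfp236, 11 that of Zfp322a, 10 that of Zfp267 and 3 that of Zfp467. Zfp292 and Zfp229 passed without each of the 20. Without the 2 wild type mice with high actin ratios the interactions of 6 members no longer passed: they were 1.26 for Zfp292, 1.03 for Zfp267, 1.12 for Zfp9, 0.67 for Zfp275, 0.62 for Zfp236 and -0.89 for Zfp467 (limma adjusted p between 0.0511 and 0.102).

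Members grouped by what they are known to do showed small counts, to be read against the 16.2 percent (vehicle) and 20.6 percent (LPS) of all tested genes that passed between genotypes. Of 6 tested members listed as regulators of transposons and imprints, 1 (16.7%) passed with vehicle and 2 (33.3%) with LPS between genotypes, all higher in MCAD-/- mice. These were Zfp932 and, with LPS, Zfp961. With LPS against vehicle, 3 rose and 1 fell in MCAD-/- mice, and 1 rose and 1 fell in wild type mice. That is 66.7% and 33.3% of the 6, against 65.7 percent and 64 percent of all tested genes. The one that rose in wild type mice was Zfp568, a repressor of a placental Igf2 transcript, by 0.33 ± 0.10 (limma adjusted p = 0.00761). That call was lost with each array centred on its median and after a further quantile normalization (limma adjusted p up to 0.161). The one that fell in both was Zfp91, by 0.41 ± 0.10 and 0.39 ± 0.10. Zfp91 is known as a ubiquitin ligase of the noncanonical NF-kappaB pathway and not as a regulator of transposons or imprints. A second probe set of Zfp91 rose by 1.05 and 1.06 on the log2 scale, so its direction depends on the probe set.

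Of 11 tested members listed as RNA and ribosome factors, 2 (18.2%) passed with vehicle, Zfp593 and Zfp106, and 3 (27.3%) with LPS between genotypes, all higher in MCAD-/- mice, against the same 16.2 percent and 20.6 percent of all genes. The third was Zfp292, which is known as a transcription factor and not as an RNA factor. Zfp346, a binder of double-stranded RNA, rose with LPS by 0.49 ± 0.11 on the log2 scale in MCAD-/- mice. In wild type mice, all under 16 units with vehicle, Zfp346 was at least 1.39-fold higher with LPS (limma adjusted p = 0.000754 in MCAD-/- mice and 1.32e-06 in wild type mice). In this group 4 rose and 1 fell with LPS in MCAD-/- mice, and 5 rose and 1 fell in wild type mice. That is 45.5% and 54.5%, against 65.7 percent and 64 percent of all tested genes. Of 17 tested sequence-specific and chromatin regulators, 1 (5.88%) passed with vehicle and 3 (17.6%) with LPS between genotypes, all higher in MCAD-/- mice, both shares below those of all genes. LPS went with 5 rises and 1 fall in MCAD-/- mice, and with 6 rises and 3 falls in wild type mice. These are 35.3% and 52.9% of the 17, also below the shares of all genes. Zfp148, a binder of GC-rich sites, fell by 0.51 ± 0.20 and 0.95 ± 0.20 (adjusted p = 0.0325 and 0.000384), and Zfp384 rose by 0.36 ± 0.10 and 0.37 ± 0.10 (adjusted p = 0.00274 and 0.0026). The MCAD-/- call of Zfp148 was lost without replicate 1, 2 or 5 of either MCAD-/- group, at -0.49 to -0.44. With each array centred on its median the wild type call of Zfp384 was lost (limma adjusted p = 0.0714).

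The corepressors that KRAB zinc finger proteins recruit were measured as well. Of 19 tested, 3 were higher in MCAD-/- mice with vehicle and 3 with LPS, and none was lower. Thus 15.8% passed between genotypes in each injection, against 16.2 percent and 20.6 percent of all tested genes. Hdac1, a histone deacetylase, averaged 137 units in MCAD-/- mice and 94.7 units in wild type mice with vehicle. With LPS it averaged 206 units in MCAD-/- mice and 134 units in wild type mice. Its differences were 0.53 ± 0.10 and 0.62 ± 0.10 on the log2 scale (limma adjusted p = 0.000996 and 0.000171). Chd3, of the same NuRD complex, was higher in MCAD-/- mice by 1.27 ± 0.29 with vehicle and Chd4 by 0.60 ± 0.18 (adjusted p = 0.00488 and 0.0237). Atf7ip, a partner of Setdb1, was higher in MCAD-/- mice by 1.22 ± 0.15 with LPS and Dnmt1, the maintenance DNA methyltransferase, by 0.51 ± 0.16 (adjusted p = 1.01e-05 and 0.0284). With LPS against vehicle, 8 rose and 4 fell in MCAD-/- mice, and 7 rose and 2 fell in wild type mice. That is 63.2% and 47.4% of the cofactors, against 65.7 percent and 64 percent of all tested genes. The histone chaperone partner Daxx rose by 1.40 ± 0.22 and 1.73 ± 0.22, and Ehmt1 fell by 0.65 ± 0.14 and 0.66 ± 0.14. Atf7ip was the 1 cofactor with an interaction, at 0.94 ± 0.22 (adjusted p = 0.0173).

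Zinc finger genes under other names were set beside the Zfp genes. Of 53 tested Zbtb, Zkscan, Zscan, Zc3h and Zfhx genes, 13.2% passed between genotypes with vehicle and 11.3% with LPS. Among all tested genes these shares were 16.2 percent and 20.6 percent. For LPS against vehicle 56.6% passed in MCAD-/- mice and 50.9% in wild type mice, against 65.7 percent and 64 percent of all tested genes. There were 15 of each direction in MCAD-/- mice and 13 higher and 14 lower in wild type mice. No test was made of these shares against those of the Zfp genes.

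Markers of other liver cell types moved with the same groups. In the genotype comparison with vehicle, 12 of 14 tested endothelial markers and 6 of 10 Kupffer cell markers were higher in MCAD-/- mice. So were 7 of 11 stellate cell markers, and 0 of 8 hepatocyte markers passed. Among all tested genes 9.81 percent were higher with vehicle. The summed endothelial markers ran from 1951 to 2839 units in MCAD-/- mice, against 659 to 1520 units in wild type mice. The Kupffer sum ran from 1823 to 2540 units in MCAD-/- mice, against 1012 to 1839 units in wild type mice, and the stellate sum from 3956 to 4313 units in MCAD-/- mice, against 2029 to 3438 units in wild type mice. With LPS the endothelial sum ran from 896 to 1655 units in MCAD-/- mice, against 1455 to 2363 units in wild type mice, with 0 of 14 markers higher and 3 lower in MCAD-/- mice. In that comparison 0 of 10 Kupffer markers passed, 1 of 11 stellate markers was higher and 2 were lower, and 1 of 8 hepatocyte markers was higher. Among all tested genes 8.75 percent were higher and 11.8 percent lower. All 4 tested neutrophil markers rose with LPS in both genotypes. Between genotypes 1 of the 4 was lower in MCAD-/- mice with vehicle, where 6.39 percent of all tested genes were. With LPS 1 of the 4 was higher in MCAD-/- mice. At the floor on all arrays stayed 6 of the 10 neutrophil markers on the array, 8 of 9 lymphocyte markers and 5 of 5 cholangiocyte markers. Of 10 Kupffer markers 9 fell and 1 rose with LPS in MCAD-/- mice, and 7 fell and 1 rose in wild type mice. Of 8 hepatocyte markers 6 fell in each genotype. Of 14 endothelial markers 3 rose and 9 fell in MCAD-/- mice, 6 rose and 1 fell in wild type mice, and 7 had a negative interaction. LPS passed for 65.7 percent and 64 percent of all tested genes. In whole liver, fewer cells of a type and less RNA per cell cannot be told apart. The part of these markers in the Zfp differences was not tested.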

How the data were processed

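Liver RNA of 20 mice was measured on 1-colour Affymetrix arrays, 1 per mouse. The deposited table holds intensity on a linear scale for 45101 probe sets, made with GCRMA per the submitters' processing notes, with version and settings not given in the sources used here. GCRMA compresses low signals, so a fold is printed as "at least", set against 16 units, for a group with all 5 mice under 16; interactions, medians and plotted differences are fitted values. The deposited values were taken to log2 with no pseudocount. The number of arrays limits the precision, and intensities of different probe sets are not compared.

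Probe sets were named through the platform annotation (932 with several symbols and 9160 not listed were left out), and all 150 tested members matched RefSeq (GRCm38.p6), which was used for names, gene order and promoters. One model with the 4 group means was fitted to the 8774 genes with limma 3.58.1 in R 4.3.3, Benjamini-Hochberg adjusted over all of them, two-sided, threshold 0.05. Errors after ± are standard errors. Promoters were aligned with Biopython 1.88. The pipeline was tested on simulated data. A grouping by KRAB domain or finger number was not analysed here, since no protein table was used.

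Groups and replicate numbers came from the labels, which call the mice of a group replicates. A consistent pairing of same-numbered mice was not shown: the correlation of their deviations ran from -0.12 to 0.28 over the 4 comparisons. Between genotypes with LPS it was over 0.1 for 3 of the 5 pairs, and in no comparison was it over 0.1 for all 5. No pair of arrays was identical. Members, lists and tests were chosen with earlier results of these data known. Named genes were Zfp874a, members past the threshold in both genotype comparisons, the 6 largest rises and falls past the threshold in each comparison, up to 5 interactions of each sign, up to 3 per role list, up to 4 cofactors per comparison and array neighbours. Other names were chosen after their values were seen. Alternatives were the replicate block, filters, the mean of probe sets, the next brightest probe set, 2 scalings, a pseudocount of 16 units, another prior, the compared groups alone and each mouse left out, of which the next brightest probe set and leaving out the 2 arrays with high actin ratios were added after seeing the data.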

Additional observations from a re-analysis of the deposited data

Results flagged for a closer look

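Among 41 named members in 4 groups, 16 of 164 groups (9.76%) held 1 mouse far from the other 4, where chance alone gives about 5%. MCAD-/- LPS replicate 3 and wild type LPS replicate 4 held 3 of these values each.

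In MCAD-/- mice with LPS, Zfp963 was high in replicate 1 (19.5 units, against 12.6 to 13.9 in the others), Zfp9 low in replicate 3 (18.1 units), Zfp750 low in replicate 3 (10.8 units) and Zfp513 high in replicate 3 (58.1 units). In MCAD-/- mice with vehicle, Zfp593 was low in replicate 2 (60.4 units), Zfp518b low in replicate 3 (4.34 units) and Zfp275 high in replicate 5 (87.7 units). Among wild type mice with LPS, replicate 4 was low for Zfp955b (8.96 units), Zfp322a (36.2 units) and Zfp207 (283 units), and replicate 5 was high for Zfp9 (24.98 units) and Zfp513 (53.6 units). In wild type mice with vehicle, Zfp513 was high in replicate 1 (23.0 units), Zfp385b low (45.9 units) and Zfp91 high (796 units) in replicate 3, and Zfp963 low in replicate 4 (8.72 units). Wild type LPS replicate 4 and wild type vehicle replicate 3 also had the highest actin ratios, and the part of RNA integrity in these values was not tested.

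The LPS response, as the difference between MCAD-/- and wild type mice on the log2 scale, passed the interaction test for 8 members (limma). It was 1.51 for Zfp292, 1.40 for Zfp267, 1.20 for Zfp9, 1.11 for Zfp322a, 1.08 for Zfp229, 0.78 for Zfp275, 0.63 for Zfp236 and -1.16 for Zfp467. The values of Zfp267 and Zfp229 rest on groups under 16 units.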

How the results depend on the processing

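Dim signal is the main limit: 69 of the 150 tested members were under 16 units on at least 1 array, their differences reach into the range that background correction compresses, and 5 mice per group set the precision. Whole-liver RNA does not resolve cell types, and the replicate numbers were not shown to pair mice.

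With no filter (328 members), the counts past the threshold were 44 between genotypes with LPS, 118 and 86 for LPS in MCAD-/- and wild type mice, 5 for the interaction and 15 in both genotype comparisons. The 64 unit filter (53 members) gave 12 and 14 between genotypes with vehicle and with LPS, 31 and 22 for LPS in MCAD-/- and wild type mice, and 2 interactions. These 2 settings test other numbers of members. The mean of probe sets gave 48 for LPS in MCAD-/- mice, and leaving out the 2 arrays with high actin ratios gave 2 interactions; the cause was not tested. With the replicate block, for which no pairing was shown, the counts were 20 and 30 between genotypes, 76 and 52 for LPS, 7 interactions and 8 in both genotype comparisons. With 1 mouse left out in turn, the counts ran from 13 to 25 between genotypes with vehicle, 24 to 33 with LPS, 61 to 81 for LPS in MCAD-/- mice, 50 to 56 in wild type mice, 3 to 9 for the interaction and 7 to 11 in both genotype comparisons. Other settings kept each count within 1.5 times.

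Of 97 results for named members, 66 kept direction and side of the threshold in every setting run, 29 lost the call in at least 1 and 9 turned sign in at least 1. All sign changes came from using other probe sets of the gene. The mean of probe sets gave, on the log2 scale, -0.0145 for Zfp106 between genotypes with LPS and 0.074 for LPS in MCAD-/- mice, and in wild type mice with LPS 0.0567 for Zfp91 and -0.12 for Zfp207. The next brightest probe set gave -0.61, -0.51 and 0.20 for Zfp106 (between genotypes with vehicle, with LPS, and for LPS in MCAD-/- mice), -0.0338 and -0.0713 for Zfp617 between genotypes, and for LPS in MCAD-/- and wild type mice 1.05 and 1.06 for Zfp91 and -0.32 and -0.98 for Zfp207.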
